A study of Mus musculus with 2 samples.

Results

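The capillary endothelium of the mouse adrenal gland, and the growth-factor signals that act on it, were followed through 40 genes: 13 markers of endothelial identity, 3 sinusoidal and lymphatic markers, 4 VEGF ligands, 5 VEGF receptors and co-receptors, 4 genes of the angiopoietin and TIE system, 3 Notch genes, 2 apelin genes and 6 transcription factors. Members were picked from a list of gene names and matched to gene identifiers through the GRCm38 name table. All 40 were present in both gene tables, among 43346 Ensembl genes. The tissue was the adrenal gland of a C57BL/6J female at 10 weeks of age, an adult of an inbred laboratory strain, and no treatment or engineered allele is given for it. Both libraries, replicate 1 and replicate 2, were made from polyadenylated RNA of 1 biological sample and carry the labels of technical replicates. Replicate 2 was made in 2015, per the labels, and no date was used for replicate 1. Intervals and p-values cover counting error only, and none covers library preparation or differences between animals.

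In the adrenal cortex, blood runs from the capsule to the medulla through sinusoids, wide capillaries whose endothelial cells carry fenestrae that let steroids pass into the blood. Steroid-producing cells are a known source of VEGF-A, which keeps such capillaries alive and fenestrated by acting on the receptor VEGFR2 on endothelial cells. Angiopoietins, the Notch ligand DLL4 and apelin act on the same cells to stabilise vessels, choose sprouting tip cells and set vessel calibre, and SOXF and ETS transcription factors hold the endothelial programme in place.

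Rounded expected counts summed to 28267651 in replicate 1 and 17376660 in replicate 2, but mitochondrial RNA filled much of replicate 1. Nuclear genes received 17.5% of TPM (a share of all transcripts, normalised for length) in replicate 1 and 61.6% in replicate 2. A TPM in replicate 1 is thereby pushed down for every nuclear gene, so levels are also given as nuclear TPM, which is TPM rescaled over nuclear genes alone. The libraries differed across the whole transcriptome: of 14358 genes with 20 or more counts over both libraries, 36.5% were called higher and 27.7% lower in replicate 2 by a two-sided exact binomial test with Benjamini-Hochberg adjustment, at a fold of at least 2 after TMM scaling. The log2 ratio of replicate 2 to replicate 1 rose with the GC content of the gene, with a Pearson correlation of 0.82 and a Spearman correlation of 0.88 across 14274 genes, which are not independent replicates. Mitochondrial share and GC trend move with the library here, and their parts in a difference were not tested. Ratios are therefore given as measured and again after the GC trend over all genes was removed.

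The endothelial and angiogenic genes covered nearly the whole width of this GC trend, from 39.1% GC for Angpt1 to 61.5% for Notch4, with a median of 53.9% against 49.8% over all tested genes. The letters of their coding sequence show the contrast. For 6 genes, 90 bases of coding sequence were chosen whose GC content is closest to that of the whole gene, and G and C are in capitals. The first 3 were called higher in replicate 2 and had between 3 and 56 counts in replicate 1, and the last 3 were called lower in replicate 2. All stretches lie in coding exons, are taken from GENCODE transcripts on GRCm38 (mm10), and read 5′ to 3′ in the direction of transcription.
Cldn5 (chr16:18776996-18777085, plus strand, 60.5% GC over the gene): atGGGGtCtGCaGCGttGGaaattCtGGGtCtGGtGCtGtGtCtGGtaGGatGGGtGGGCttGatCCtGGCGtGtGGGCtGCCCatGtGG
Sox18 (chr2:181671210-181671299, minus strand, 60.9% GC over the gene): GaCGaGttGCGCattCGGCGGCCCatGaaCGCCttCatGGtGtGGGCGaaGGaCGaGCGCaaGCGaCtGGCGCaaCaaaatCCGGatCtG
Eng (chr2:32657572-32657661, plus strand, 57.6% GC over the gene): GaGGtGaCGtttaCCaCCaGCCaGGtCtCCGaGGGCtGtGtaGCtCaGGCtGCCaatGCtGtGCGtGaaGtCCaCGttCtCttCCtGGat
Emcn (chr3:137391610-137391699, plus strand, 42.2% GC over the gene): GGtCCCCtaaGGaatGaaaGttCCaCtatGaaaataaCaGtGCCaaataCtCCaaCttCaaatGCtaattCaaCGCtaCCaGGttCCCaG
Angpt1 (chr15:42496369-42496458, minus strand, 39.1% GC over the gene): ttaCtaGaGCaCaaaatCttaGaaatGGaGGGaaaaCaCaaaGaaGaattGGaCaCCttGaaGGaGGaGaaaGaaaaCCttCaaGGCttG
Nrp1 (chr8:128363272-128363361, plus strand, 45.7% GC over the gene): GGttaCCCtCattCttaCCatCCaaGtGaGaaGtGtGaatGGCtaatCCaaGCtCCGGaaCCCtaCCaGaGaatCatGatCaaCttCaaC
The Sox18 stretch holds 55 G or C bases of 90, and the Angpt1 stretch holds 35.

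A TPM of 1 or more was reached by 23 of the 40 genes in both libraries and by another 16 in replicate 2 only. Pgf stayed below it in both. With nuclear TPM, 34 genes reached 1 in both libraries. The summed TPM of all 40 genes was 207 in replicate 1 and 1104 in replicate 2, and the summed nuclear TPM was 1184 and 1791. TPM was higher in replicate 2 for 39 genes, with Angpt1 as the exception, whereas nuclear TPM was higher there for 26. The order of the genes changed as well. By TPM, replicate 1 was led by Emcn, Nrp1, Kdr, Vegfa and Flt1, and replicate 2 by Vegfa, Emcn, Plvap, Egfl7 and Eng. The Spearman correlation of TPM between the libraries was 0.40 over the 40 genes, and 5 genes were among the 10 highest of both. In the plot of TPM by gene, the gap between the libraries is widest for Sox18, Cldn5 and Gpihbp1 and narrow for Emcn, Prox1 and Fli1.

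**Figure D1:**
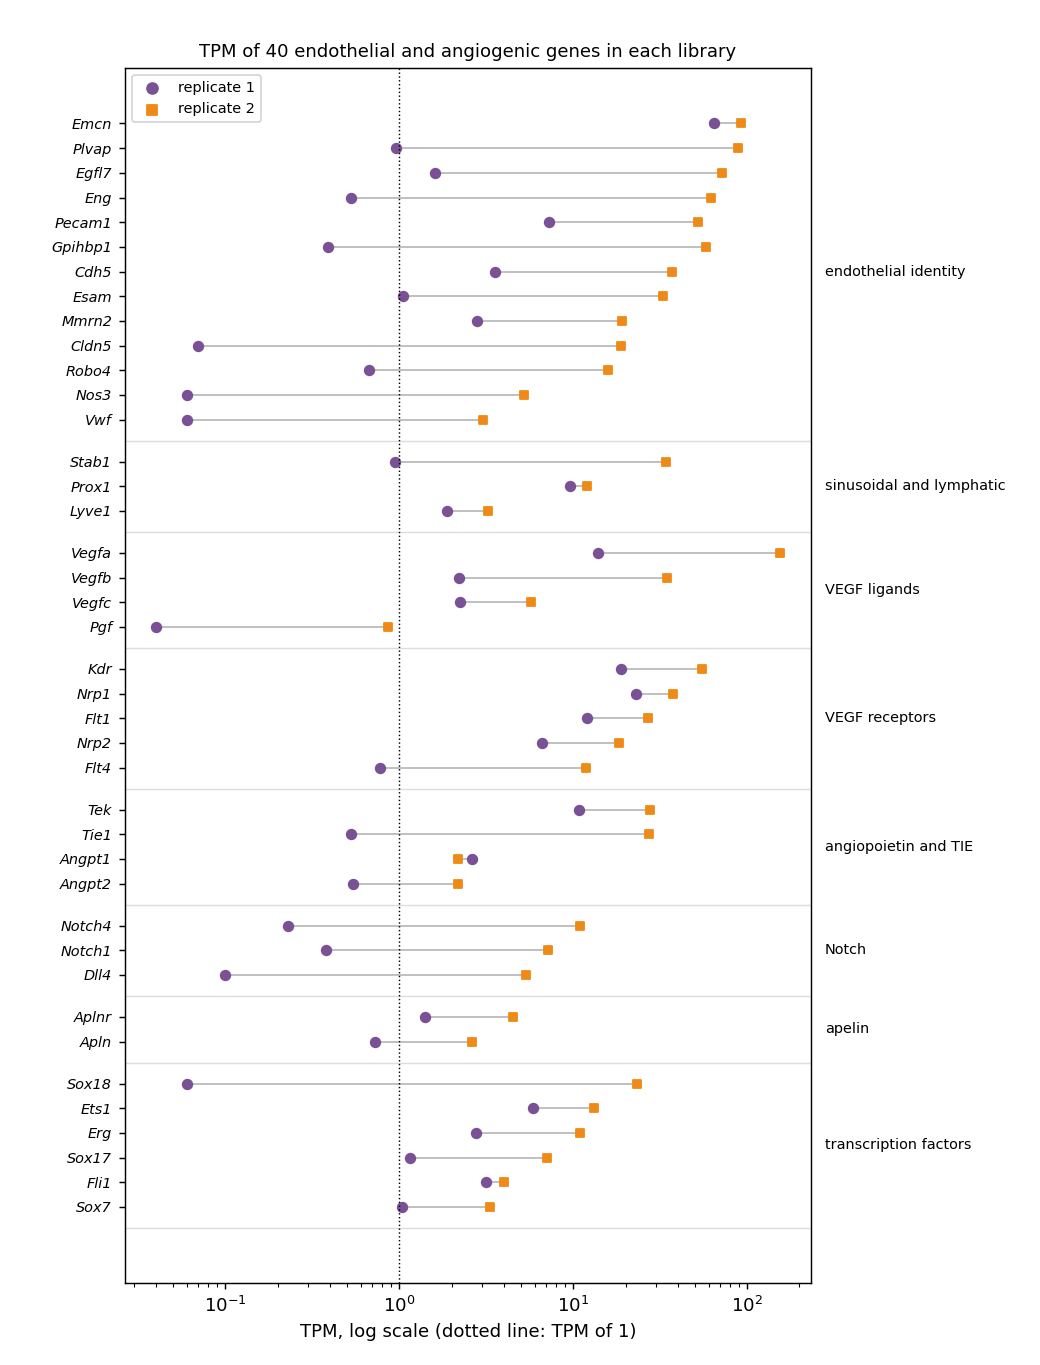
TPM of each of the 40 genes in replicate 1 (circles) and replicate 2 (squares) on a log axis, grouped by role; the dotted line marks a TPM of 1. In replicate 1, 23 genes lie at or above the line, and in replicate 2, 39 genes do.

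By the exact binomial test on TMM-scaled counts, 20 of the 40 genes were higher in replicate 2, 6 were lower and 14 were not called, among them Pgf, which had too few counts to test. This stands against 36.5% higher and 27.7% lower over all tested genes. The median log2 ratio was 1.07 over the 39 tested genes and 0.10 over all genes. After removal of the GC trend, 6 were higher, against 13.4% of all genes, and 7 were lower, against 12.7%. The median log2 ratio was then -0.23, and -0.03 over all genes. Removing the trends with GC content and length together gave 6 higher and 6 lower, against 12.3% and 12.8% of all genes. When each gene's GC content was instead weighted by the shares of its transcripts, an alternative chosen after seeing the data, 5 were higher and 9 lower, against 12% and 11.6% of all genes. Calls that depend on this choice of GC correction are named beside each gene. Scaling by total counts, mitochondrial ones included, lifted the median of all genes from 0.10 to 1.24 and called 24 higher and 0 lower, against 54.1% and 3.98% of all genes, so directions are given relative to TMM scaling.

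Calls followed GC content class by class. Of 16 genes above 55% GC, 15 were called higher and 0 lower, where 91.4% of all genes in that class were higher. Of 10 genes from 50% to 55% GC, 4 were higher and 0 lower, where 54.4% of all genes were higher. Of 13 genes below 50% GC, 1 was higher and 6 were lower, where 2.88% of all genes were higher and 52.6% lower. The exceptions were Sox17, which was not called higher despite 55.5% GC, and Pecam1, which was higher at 49.8% GC. Across the 39 genes the Pearson correlation of GC content and log2 ratio was 0.86 and the Spearman correlation 0.87, as a description of points that share both libraries. The SD of the log2 ratio over these genes was 2.46 before and 1.19 after removal of the trend, and over all genes it was 2.40 and 1.32.

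**Figure D2:**
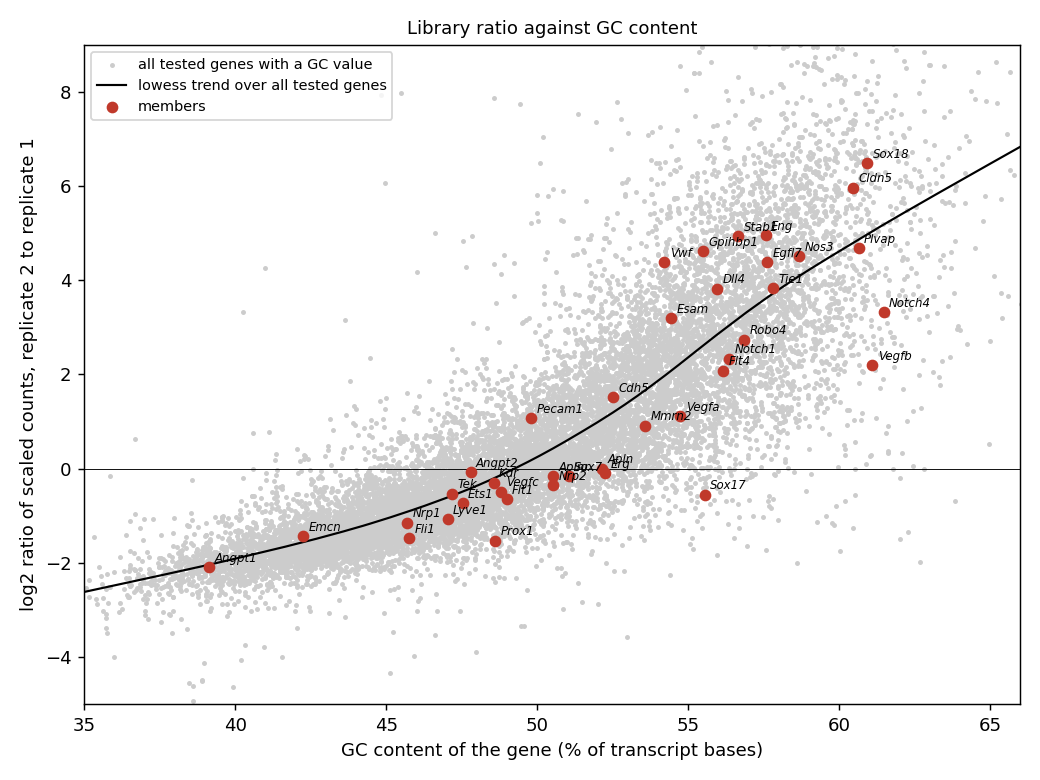
Log2 ratio of TMM-scaled counts, replicate 2 to replicate 1 (y axis), against GC content of the gene in percent (x axis), with all tested genes in grey, the lowess trend over them as a line and 39 endothelial and angiogenic genes in red; genes outside the axis limits are not drawn. The red points run from Angpt1 at -2.09 to Sox18 at 6.48 and mostly follow the line, with Vegfb, Notch4 and Sox17 well under it and Vwf and Gpihbp1 above it.

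Junction and surface proteins that define endothelial cells were the largest group, and 11 of the 13 were called higher in replicate 2, 1 lower and 1 neither, against 36.5% higher and 27.7% lower over all genes. Of the 13, 7 lie above 55% GC, where 91.4% of all genes were higher. Pecam1, the adhesion molecule CD31, had 705 counts and a TPM of 7.27 in replicate 1, and 2002 counts and a TPM of 52.2 in replicate 2. Cdh5, the VE-cadherin of endothelial junctions, had 449 and 1742 counts and a TPM of 3.56 and 36.8. Both were well counted in both libraries, and both were higher in replicate 2 on all scales shown, with scaled ratios of 2.10 (95% exact interval 1.93 to 2.29) for Pecam1 and 2.87 (2.59 to 3.19) for Cdh5. Neither passed a fold of 2 once the GC trend was removed, with log2 ratios of 0.89 and 0.33. Esam, an adhesion molecule of tight junctions, had 53 and 661 counts, a TPM of 1.05 and 32.8, and remained higher by 1.12 on the log2 scale after GC removal (exact binomial test, Benjamini-Hochberg adjusted p = 4.1e-09).

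Claudin-5 was barely counted in replicate 1. Cldn5, which seals endothelial tight junctions, had 3 counts there and 288 in replicate 2, a TPM of 0.070 and 18.9. The scaled ratio was 71.1, with a 95% interval from 24.1 to 347 that reflects the 3 counts. With the GC trend removed its log2 ratio was 1.17 and was not called (exact binomial test, Benjamini-Hochberg adjusted p = 0.15). Eng, the TGF-beta family co-receptor endoglin, had 56 and 2369 counts and a TPM of 0.53 and 62.4, which moved it from the 30th place of 40 to the 5th. It was among the genes that stayed higher after GC removal, by 1.35 on the log2 scale (exact binomial test, Benjamini-Hochberg adjusted p = 2.5e-15).

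Emcn and Plvap, both characteristic of fenestrated and sinusoidal capillaries, went opposite ways. Emcn encodes endomucin, a sialomucin of capillary and venous endothelium, and had 3379 counts in replicate 1 and 1696 in replicate 2. Its TPM was 64.8 and 92.8, a mean of 78.8 ± 19.8 (SD, n = 2 libraries), while nuclear TPM was 371 and 151. Plvap encodes the protein of the diaphragms that span fenestrae and had 58 and 2028 counts, a TPM of 0.96 and 89.0 and a nuclear TPM of 5.49 and 144. Endomucin thus exceeded Plvap by 67.5 times in TPM in replicate 1 and by 1.04 times in replicate 2, where the deposited intervals of the 2 genes overlapped. At 42.2% and 60.6% GC they stand near opposite ends of the GC range, and without the GC trend their log2 ratios were 0.13 and -0.18, neither of which was called.

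Endothelial genes with matrix, guidance or enzyme products had a higher TPM in replicate 2, and none of the 4 was called without the GC trend when GC content was averaged by length. Egfl7, a matrix factor secreted by endothelium, had 26 and 743 counts and a TPM of 1.61 and 71.6. Robo4, an endothelial guidance receptor, had 78 and 707 counts and a TPM of 0.67 and 15.8. Mmrn2, a matrix protein of endothelium, had 350 and 892 counts and a TPM of 2.81 and 19.1. Mmrn2 missed the fold of 2, with a scaled ratio of 1.89, and after GC removal none of these 3 was called, with log2 ratios of 0.75, -0.54 and -0.75. With share-weighted GC, Robo4 was called lower, at -1.36. Nos3, the endothelial nitric oxide synthase, had 8 and 258 counts and a TPM of 0.060 and 5.24, and its log2 ratio without the GC trend was 0.41.

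Vwf and Gpihbp1 stayed higher after each GC correction, but by amounts that depended on it. Vwf, the von Willebrand factor stored in endothelial granules, had 7 counts in replicate 1 and 209 in replicate 2, a TPM of 0.060 and 3.02. Its log2 ratio was 4.39 as measured and 2.42 without the GC trend (exact binomial test, Benjamini-Hochberg adjusted p = 1.4e-08), higher than 95.9% of all tested genes, but with share-weighted GC it was 1.26. That weighting leaves out transcripts absent from the GENCODE reference, here the transcript that led replicate 2 at 49.9% of the gene. Gpihbp1, which carries lipoprotein lipase across capillaries of fat, muscle and heart, had 14 and 477 counts and a TPM of 0.39 and 58.3. Its log2 ratio without the GC trend was 2.00 (exact binomial test, Benjamini-Hochberg adjusted p = 2.6e-10), and with share-weighted GC it was 2.06. Markers of other cells in the sample also differed in TPM. The 5 adipocyte markers summed to 465 and 3145, led by Fabp4 at 335 and 1443 and Cfd at 2.58 and 860. The 5 platelet markers summed to 0.77 and 8.18, led by Pf4 at 6 and 28 counts, with Gp9 at 0 in both. In nuclear TPM the sums were 2658 and 5103 for adipocyte markers and 4.40 and 13.3 for platelet markers. Of the 5 adipocyte markers, 2 were called higher, 0 lower and 3 neither, against 36.5% higher and 27.7% lower over all genes. Without the GC trend 4 were higher, against 13.4% of all genes. The part of adipocytes and platelets in the ratios of Gpihbp1 and Vwf was not tested. Both libraries came from 1 biological sample, and bulk levels cannot tell the number of cells of a type from RNA per cell.

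**Figure D3:**
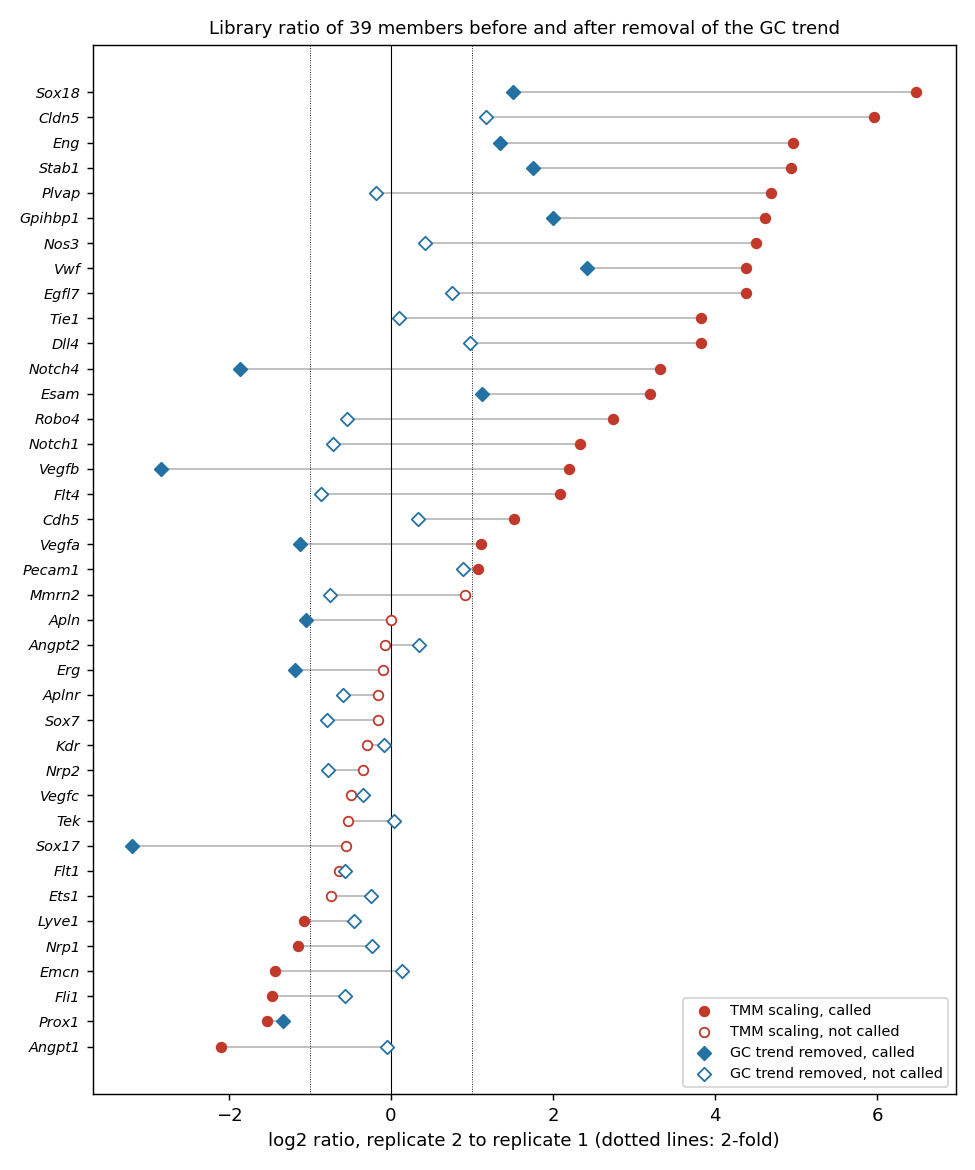
Log2 ratio of TMM-scaled counts, replicate 2 to replicate 1, for 39 genes before (circles) and after (diamonds) removal of the GC trend, with filled symbols for called genes and dotted lines at a fold of 2. Of 20 genes called higher before, 6 remained higher, 11 were no longer called and 3 were called lower.

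Sinusoidal and lymphatic markers had no common direction. Stab1, the scavenger receptor stabilin-1 of sinusoidal endothelium and some macrophages, had 36 and 1506 counts and a TPM of 0.94 and 34.4, and stayed higher by 1.75 on the log2 scale without the GC trend (exact binomial test, Benjamini-Hochberg adjusted p = 4.1e-18) and by 2.41 with share-weighted GC. Lyve1, a hyaluronan receptor of lymphatic and sinusoidal endothelium, had 151 and 97 counts and a TPM of 1.88 and 3.22. Prox1, the transcription factor that sets lymphatic identity, had 2467 and 1157 counts and a TPM of 9.62 and 12.1. With GC content averaged by length, Prox1 was the only gene of the 6 called lower that was still called after GC removal, by -1.33 on the log2 scale (exact binomial test, Benjamini-Hochberg adjusted p = 3.8e-159), while Lyve1 went from -1.07 to -0.46 and lost the call. With share-weighted GC, Prox1 too lost the call, at -0.55, and Nrp1 was the lower call that held. Prox1 exceeded Lyve1 in TPM by 5.12 and 3.74 times.

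Markers that would place these vessels more closely were sparse. Of 5 markers of liver-type sinusoids, Clec4g had 0 and 1 counts, and the list was led by Oit3 at a TPM of 1.08 and 9.70 and Fcgr2b at 3.61 and 8.93. Lymphatic genes outside the 40 were led by Nr2f2, a transcription factor of venous and lymphatic endothelium, at a TPM of 28.3 and 31.6, while Pdpn was at 0.79 and 2.36 and the lymphatic chemokine gene Ccl21a had 0 and 15 counts. Of these 5 lymphatic genes 4 were tested, with 0 higher and 2 lower, against 36.5% and 27.7% of all genes. Without the GC trend 1 was lower, against 12.7% of all genes. Macrophage markers, which matter for Stab1 and Lyve1, summed to a TPM of 12.9 and 193 over 8 genes, led by C1qa at 0.99 and 54.7 and C1qb at 0.57 and 52.7. In nuclear TPM this sum was 73.8 and 313. As measured, 5 of the 8 were called higher, 1 lower and 2 neither, against 36.5% higher and 27.7% lower over all genes. With the trend removed, 2 were higher and 0 lower, against 13.4% and 12.7% of all genes. The part of macrophages in the Stab1 ratio was not tested. Lymphocyte markers summed to 0.060 and 2.62 over 5 genes. All 13 identity markers had counts in both libraries, whereas markers limited to sinusoids were few, so the 40 genes are described as endothelial and angiogenic genes and not as a measure of sinusoids.

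The 4 VEGF ligands among the 40 genes were led by Vegfa in both libraries. Vegfa, the main survival and permeability factor of fenestrated endothelium, had 1211 counts and a TPM of 13.9 in replicate 1, and 3530 counts and a TPM of 155 in replicate 2, where it was the highest of the 40 genes. Vegfb, a ligand of VEGFR1, had 71 and 442 counts and a TPM of 2.20 and 34.4. Vegfc, the ligand of VEGFR3 that drives lymphatic growth, had 126 and 121 counts and a TPM of 2.24 and 5.73. All were higher in TPM in replicate 2, but only Vegfa and Vegfb were called higher, against 36.5% of all genes. Vegfb lies at 61.1% GC, in the class above 55% where 91.4% of all genes were higher. Vegfa lies at 54.7% GC, in the class from 50% to 55% where 54.4% were higher. Both calls turned to lower without the GC trend, against 12.7% of all genes called lower. Their log2 ratios went from 1.11 to -1.12 for Vegfa and from 2.20 to -2.84 for Vegfb (exact binomial test, Benjamini-Hochberg adjusted p = 5.4e-103 and 4.4e-33 after removal). With share-weighted GC, Vegfa was at -0.91 and not called. Pgf, the placental growth factor, had 2 and 15 counts and was the lowest of the 40 genes in both libraries. Vegfd, the other lymphatic ligand, was outside the 40 and had a TPM of 18.6 and 54.9. It thus stood above Vegfa in replicate 1 and below it in replicate 2.

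The Vegfa transcripts differ at the 3′ end of the coding sequence, where alternative exons encode the part that binds heparin. Vegfa-202 encodes 368 residues and Vegfa-211 encodes 324, and both were read from an upstream start in GENCODE. Vegfa-201 encodes 146 residues. Vegfa-211 and Vegfa-201 go on to the same last coding exon, and both lack the heparin-binding exons. The junction where Vegfa-202 parts from Vegfa-211 and Vegfa-201 is shown. The 30 coding bases shared by all 3 transcripts are in lower case. The next 18 coding bases of each, from the following coding exon, are in capitals. The shared bases lie at chr17:46024065-46024094 on GRCm38, minus strand, and the capitals at chr17:46021105-46021122 for Vegfa-202 and chr17:46018862-46018879 for Vegfa-211 and Vegfa-201.
Vegfa-202: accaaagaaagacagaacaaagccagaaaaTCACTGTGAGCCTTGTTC
Vegfa-211 and Vegfa-201: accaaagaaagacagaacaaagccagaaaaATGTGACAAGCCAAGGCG
Vegfa-202 was the leading transcript in both libraries, with a deposited share of 49.9% of the gene in replicate 1 and 31.0% in replicate 2. Vegfa-211 held 28.2% and 5.0%, and Vegfa-201 held 0.39% and 15.0%. Models with a retained intron, 5 of the 11 Vegfa transcripts, took 15.5% and 40.8% together, led by Vegfa-210 at 4.60% and 15.8% and Vegfa-209, listed at 0 in replicate 1 and 11.02% in replicate 2. Vegfa-211 and Vegfa-201, which share the last junction, together held 28.6% in replicate 1 and 19.95% in replicate 2, less than Vegfa-202 in each. Vegfb changed in a like way: Vegfb-202, of 188 residues, had 100% of the gene in replicate 1 and 50.1% in replicate 2, and Vegfb-201, of 207 residues, had the rest.

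Of the 5 VEGF receptors and co-receptors, 1 was called higher, 1 lower and 3 neither, against 36.5% higher and 27.7% lower over all genes. After removal of the GC trend 0 were called, against 13.4% higher and 12.7% lower over all genes. With share-weighted GC, Nrp1 and Flt4 were called lower. Kdr, the main signalling receptor VEGFR2, had 3565 and 3920 counts, a TPM of 18.7 and 54.8 and a nuclear TPM of 107 and 88.9. Flt1, the decoy-like receptor VEGFR1, had 2546 and 2195 counts, a TPM of 12.0 and 26.9 and a nuclear TPM of 68.5 and 43.7. Kdr thus stood above Flt1 by 1.56 times in replicate 1 and 2.04 times in replicate 2, with deposited intervals apart in both. Scaled ratios were 0.814 (95% exact interval 0.778 to 0.852) for Kdr and 0.638 (0.603 to 0.676) for Flt1, and log2 ratios without the GC trend were -0.09 and -0.57. Flt4, the lymphatic receptor VEGFR3, had 157 and 899 counts and a TPM of 0.78 and 11.9, and its log2 ratio went from 2.08 to -0.86, and to -1.18 with share-weighted GC.

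The neuropilins, co-receptors that bind VEGF-A and semaphorins, were ordered alike in both libraries. Nrp1 had 4375 and 2673 counts, a TPM of 23.0 and 37.5 and a nuclear TPM of 132 and 60.8. Nrp2 had 1368 and 1451 counts, a TPM of 6.58 and 18.5 and a nuclear TPM of 37.6 and 29.9. Nrp1 exceeded Nrp2 by 3.50 and 2.03 times in TPM. Nrp1 was called lower in replicate 2, with a scaled ratio of 0.452 (95% exact interval 0.431 to 0.475). The log2 ratio of -1.14 became -0.23 without the GC trend, but with share-weighted GC it was -1.43 and the call held.

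Flt1 makes a full-length receptor and a short form that ends before the membrane and the kinase domain and binds VEGF outside the cell. Flt1-202 encodes 1333 residues and Flt1-203 encodes 688, and their coding sequences are the same over 657 codons. The point where they part is printed with 30 shared coding bases in lower case and the 60 coding bases of each transcript that follow in capitals. On GRCm38, minus strand, the shared bases lie at chr5:147639225-147639254. Flt1-202 goes on in the next coding exon at chr5:147634464-147634523, and Flt1-203 reads on without a break at chr5:147639165-147639224, in bases that are intronic for Flt1-202.
Flt1-202: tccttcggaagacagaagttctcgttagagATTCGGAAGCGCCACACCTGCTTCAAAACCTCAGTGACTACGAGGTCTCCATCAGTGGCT
Flt1-203: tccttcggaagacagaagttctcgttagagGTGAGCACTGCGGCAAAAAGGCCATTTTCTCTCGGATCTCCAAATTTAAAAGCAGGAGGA
The short form took 51.5% of Flt1 in replicate 1 and 28.7% in replicate 2, and the full-length form 48.5% and 71.3%. In expected counts these are 1251 and 588 for Flt1-203 and 1295 and 1607 for Flt1-202. The 2 transcripts differ in GC content over their whole length, 45.7% for Flt1-203 and 50.5% for Flt1-202, and the part of GC content in the change of shares was not tested.

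**Figure D4:**
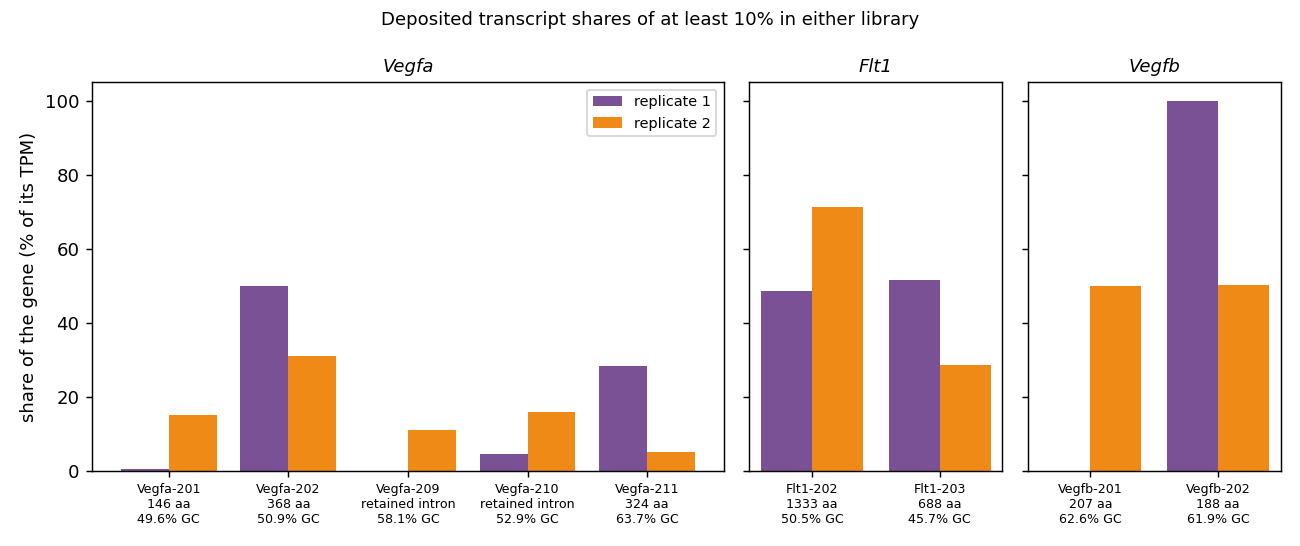
Deposited share of each transcript in the TPM of its gene, in percent, for Vegfa, Flt1 and Vegfb in replicate 1 and replicate 2, limited to transcripts with at least 10% in either library and with protein length and GC content under each name. The leading Flt1 transcript changes from Flt1-203 to Flt1-202, while Vegfa-202 leads in both libraries.

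Across the 40 genes, 28 had more than 1 annotated transcript in the tables. The leading transcript was the same in both libraries for 18 of them and differed for 10: Egfl7, Eng, Flt1, Gpihbp1, Nrp2, Sox17, Stab1, Tek, Tie1 and Vwf. Among the 15 with at least 100 counts in each library it was the same for 11 and differed for Flt1, Nrp2, Sox17 and Tek. Kdr was read almost wholly as Kdr-201, at 99.7% and 99.9%. Several of the changes came with low counts, as in Stab1, where a model of 92 residues led replicate 1 on 36 counts for the gene and the model of 2571 residues led replicate 2. Eng-205, of 652 residues, led replicate 1 with 59.4% and Eng-201, of 653 residues, led replicate 2 with 61.2%, from 56 and 2369 counts. Gpihbp1-203 led replicate 1 with 53.7% on 14 counts, and Gpihbp1-201 led replicate 2 with 87.8%. Egfl7 went from Egfl7-214, a retained-intron model at 31.2%, to the coding Egfl7-202 at 29.9%. Vwf went from Vwf-210, a model marked for nonsense-mediated decay, at 75.4% on 7 counts for the gene, to a transcript without a name in the reference at 49.9%.

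In the angiopoietin and TIE system the receptors had more TPM together than the ligands in both libraries. Angpt1, the vessel-stabilising ligand of TIE2, had 352 and 111 counts and a TPM of 2.61 and 2.19, the only TPM of the 40 genes that was lower in replicate 2. Angpt2, its context-dependent antagonist, had 61 and 78 counts and a TPM of 0.54 and 2.17. Angpt1 was called lower, with a scaled ratio of 0.234 (interval 0.187 to 0.290), while the log2 ratio of -2.09 became -0.05 without the GC trend. Angpt2 was not called, at a log2 ratio of -0.08. The ligands stood at 4.83 to 1 in replicate 1 and at 1.01 to 1 in replicate 2, where their deposited intervals overlapped.

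Tek, the receptor TIE2, had 1579 and 1474 counts and a TPM of 10.9 and 27.6. Tie1, its orphan partner receptor, had 69 and 1331 counts and a TPM of 0.53 and 27.4. The receptors were at nearly the same TPM in replicate 2, where their deposited intervals overlapped, while Tek exceeded Tie1 by 20.5 times in replicate 1. Tie1 was called higher, with a scaled ratio of 14.3 (95% exact interval 11.2 to 18.5), and without the GC trend neither was called, at log2 ratios of 0.04 for Tek and 0.10 for Tie1. Tek was led by Tek-202, of 1072 residues, at 51.8% in replicate 1 and by Tek-203, of 1123 residues, at 46.8% in replicate 2. Tie1 was led by Tie1-203, of 647 residues, at 57.0% and then by Tie1-201, of 1134 residues, at 94.0%.

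All 3 Notch genes were called higher in replicate 2, against 36.5% over all genes. All 3 lie above 55% GC, where 91.4% of all genes were higher. Dll4, the ligand that restrains sprouting, had 12 and 237 counts and a TPM of 0.10 and 5.34. Notch1, its receptor, had 116 and 790 counts and a TPM of 0.38 and 7.15. Notch4, a receptor largely limited to endothelium, had 48 and 653 counts and a TPM of 0.23 and 10.9. Replicate 2 was higher for each of them, with scaled ratios of 14.6, 5.04 and 10.1. Without the GC trend their log2 ratios were 0.98, -0.72 and -1.86, and Notch4 was called lower (exact binomial test, Benjamini-Hochberg adjusted p = 3.5e-12). Notch1 was also called lower with share-weighted GC, at -1.20, and Dll4 was called higher without the GC and length trends, at 1.19. The deposited values of Notch1 did not match each other: the posterior interval was 1.27 to 10.96 in replicate 1, above the deposited TPM of 0.38. Such a mismatch between TPM and its interval held for 5 of the 40 genes in replicate 1 and 12 in replicate 2.

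Apelin and its receptor were low in both libraries, and neither was called as measured. Apln, the ligand made by tip cells, had 72 and 97 counts and a TPM of 0.73 and 2.63. Aplnr, the receptor of venous and sprouting endothelium, had 164 and 198 counts and a TPM of 1.41 and 4.52. Both were lower in TPM in replicate 1, but their scaled ratios were 0.998 (95% exact interval 0.728 to 1.37) and 0.894 (0.723 to 1.11). Without the GC trend Apln was called lower, at -1.05 on the log2 scale (exact binomial test, Benjamini-Hochberg adjusted p = 1.9e-05), and Aplnr was at -0.59. Without the GC and length trends Apln was at -0.94 and lost the call. The receptor exceeded the ligand by 1.93 and 1.72 times in TPM.

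The SOXF factors, which act together in arterial and lymphatic endothelium, changed order between the libraries. Sox18 had 3 counts and a TPM of 0.060 in replicate 1, and 413 counts and a TPM of 23.1 in replicate 2. Sox17 had 113 and 104 counts and a TPM of 1.16 and 7.06. Sox7 had 107 and 129 counts and a TPM of 1.04 and 3.33. Sox18 was therefore the least abundant of the 3 in replicate 1 and the most abundant in replicate 2, with Sox17 at 19.3 times Sox18 in the former and Sox18 at 3.28 times Sox17 in the latter. The scaled ratio of Sox18 was 102, with a 95% interval from 34.6 to 496, and its log2 ratio without the GC trend was 1.51 (exact binomial test, Benjamini-Hochberg adjusted p = 0.043), resting on 3 counts. That call was lost without the GC and length trends, at 1.40, and with share-weighted GC, at 1.38. Sox17 was the farthest below the trend of the 40 genes, at -3.19 (exact binomial test, Benjamini-Hochberg adjusted p = 1.6e-50). Its transcript shares differed as well: Sox17-201, of 419 residues and 50.1% GC, had 100% of the gene in replicate 1 and 12.2% in replicate 2, where Sox17-204, an incomplete model of 66.9% GC, led with 44.6% on 25.5 expected counts.

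ETS factors, which bind many endothelial enhancers, had log2 ratios between -1.47 and -0.09. Erg, the most endothelial of the 3, had 255 and 323 counts and a TPM of 2.75 and 11.02. Fli1 had 323 and 157 counts and a TPM of 3.14 and 4.02. Ets1 had 941 and 761 counts and a TPM of 5.84 and 13.1. Ets1 was the highest in both libraries, while Erg and Fli1 changed places, with overlapping deposited intervals in replicate 1. Fli1 was called lower, with a log2 ratio of -1.47 that became -0.57 without the GC trend. Erg was not called as measured and was called lower without the trend, at -1.18 (exact binomial test, Benjamini-Hochberg adjusted p = 1.9e-20).

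Related genes were also compared with each other within each library. Of 20 pairs of related genes, 15 had the same order by TPM in both libraries. The 5 pairs that changed order were Notch1 and Notch4, Sox17 and Sox18, Sox7 and Sox18, Erg and Fli1, and Stab1 and Lyve1. Orders that held included Vegfa over Vegfb (6.31 and 4.49 times), Vegfa over Vegfc (6.20 and 27.0), Kdr over Flt4 (24.03 and 4.61) and Pecam1 over Cdh5 (2.04 and 1.42). Only 12 pairs had deposited intervals apart, in the same order, in both libraries. By posterior mean TPM 16 pairs kept their order. These included Notch1 over Notch4 (3.62 and 1.41 times) and Stab1 over Lyve1 (1.09 and 11.9), which changed order by TPM. Angpt1 to Angpt2 kept its order by TPM but not by posterior mean TPM, with ratios of 4.16 and 0.90. With the GC trend split evenly between the libraries and taken out of the TPM ratios, 17 pairs kept their order. The even split is a choice, and the count holds for it only.

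**Figure D5:**
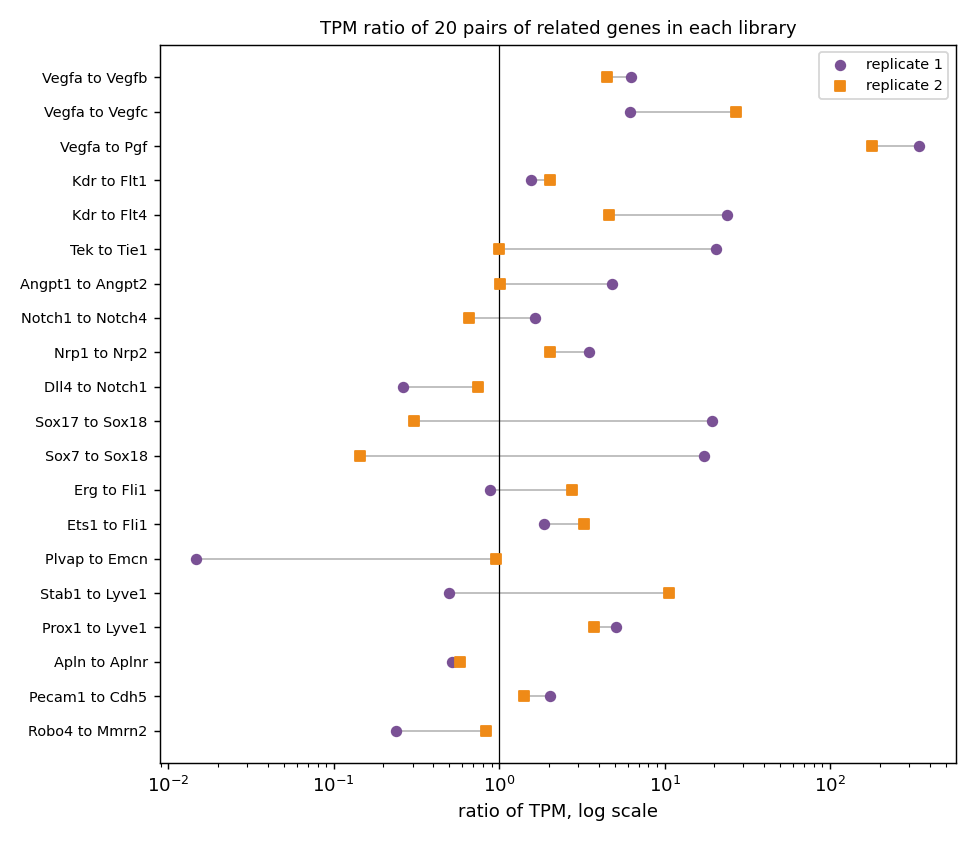
Ratio of the TPM of the first to the second gene of 20 related pairs in replicate 1 (circles) and replicate 2 (squares), on a log axis with a line at equal TPM. The points lie on the same side of the line for 15 pairs and on opposite sides for 5, with the widest crossing for Sox17 to Sox18 and Sox7 to Sox18.

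A further 85 genes of the same pathways were counted beside the 40. Of 77 tested, 28 were higher in replicate 2, 20 lower and 29 neither, against 36.5% higher and 27.7% lower over all genes, which are shares near their own. The median log2 ratio was 0.04. Without the GC trend 5 were higher and 20 lower, against 13.4% and 12.7% of all genes, and the median was -0.39. Among 40 other endothelial and sinusoidal genes, 36 were tested, with 8 higher and 11 lower, and 3 higher and 8 lower without the trend. The most abundant were Cd36, a fatty-acid transporter of capillaries and fat cells, at a TPM of 260 and 265, Cav1, the caveolae protein, at 42.1 and 76.0, and Igfbp3, a growth-factor binding protein, at 15.2 and 52.5. In nuclear TPM these were 1484 and 430, 241 and 123, and 86.7 and 85.2. Cd36 and Cav1 were called lower in replicate 2 as measured and were not called without the trend. Igfbp3 was not called as measured and was called lower without the trend.

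The shares over all genes for the lists that follow are those just given, 36.5% higher and 27.7% lower as measured and 13.4% and 12.7% without the trend. VEGF-related signals and guidance genes numbered 18, with 10 higher and 4 lower as measured, and 1 higher and 3 lower without the trend. They were led by Epas1, the hypoxia factor HIF-2 alpha, at a TPM of 14.6 and 70.9, by Vegfd, and by Plxnd1, a semaphorin receptor of endothelium, at 0.79 and 56.2. Of 12 further Notch genes, 5 were higher and 2 lower, and 0 higher and 6 lower without the trend, led by Rbpj, the DNA-binding partner of Notch, at 14.3 and 20.8, by Hes1 at 5.98 and 13.9 and by Notch2 at 2.22 and 16.3. Of 6 genes of the BMP and TGF-beta branch, in which endoglin acts, 4 were higher and 1 lower, and 1 higher and 2 lower without the trend. These were led by Id1 at 9.08 and 83.7, Id3 at 1.44 and 59.2 and Bmpr2 at 31.4 and 27.8. Among further angiopoietin and apelin genes, Tnip2 was at 1.17 and 7.53, Angpt4 stood below a TPM of 1 in both, and Apela had 0 counts in both libraries.

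Other cells of the gland were sampled by marker genes, all of which lie outside the 40. Cortical markers summed to a TPM of 7053 and 34954 over 5 genes, led by Hsd3b1 at 2871 and 11133 and Cyp21a1 at 97.0 and 9131. Medullary markers summed to 339 and 4492, led by Chgb at 303 and 1854 and Chga at 26.04 and 1700. Pericyte and smooth muscle markers summed to 35.9 and 140 over 8 genes, led by Rgs5 at 27.0 and 25.5 and Acta2 at 1.83 and 49.3, and 4 of the 8 were higher without the GC trend. Erythroid markers summed to 49.3 and 2973, led by Hba-a2 at 24.3 and 1117 and Hbb-bs at 22.8 and 1039, and 3 of the 5 were higher without the trend. Without the trend 2 of the 5 cortical markers were higher and 0 lower, and 3 of the 5 medullary markers were higher and 1 lower. The counts called without the trend stand against 13.4% higher and 12.7% lower over all genes. In nuclear TPM the cortical sums were 40317 and 56709, and the medullary sums 1940 and 7288. Pericyte and smooth muscle markers were then nearly level, at 205 and 228, and erythroid markers stood at 282 and 4823. Each of these sums was higher in replicate 2, as was that of the 40 genes. What these cells add to the levels of the endothelial and angiogenic genes was not tested.

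Counting adds some limits for single genes. In replicate 1, 18 of the 40 genes had fewer than 100 counts, against 4 in replicate 2, so values from replicate 2 are the more precise for GC-rich genes. None of the 40 has a near-identical copy elsewhere among GENCODE transcripts, but 17 overlap another annotated gene, 16 of them on the opposite strand. The overlapping genes with most counts were Agpat2 beside Egfl7, at 131 and 4045, Gtpbp3 beside Plvap, at 22 and 253, Nt5dc2 beside Stab1, at 4 and 287, Mcph1 beside Angpt2, at 178 and 179, and Fpgs beside Eng, at 1 and 156. Whether the counting used strand is not given in the sources used here, so fragments in these overlaps may be shared and the 5 genes named are uncertain to that extent.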

How the data were processed

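Both libraries of the 1 adrenal sample form 1 group, and the comparison is between libraries. The authors deposited a gene and a transcript table per library. The deposited expected counts estimate fragments per gene or transcript and were rounded for testing. TPM and FPKM are as deposited by the authors, FPKM serving only an alternative. Posterior mean TPM and its interval bounds were treated as a score, as the deposited headers give no fixed range. Transcript shares are the deposited percent of each gene. Per the deposited notes, quantification used mm10 with GENCODE M4. Aligner, counter and strand setting: not given in the sources used here. Lengths are those of the deposited tables. GC content, coordinates and sequences came from GENCODE M21 on GRCm38, with gene GC averaged over transcripts by length. Of 183 transcripts of the 40 genes, 178 were found in M21 and 166 had the same length. Transcripts not found there took no part in share-weighted GC. These include the leading transcript of Erg in both libraries and that of Vwf in replicate 2.

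Rows that are not Ensembl genes had no counts and were left out. Genes holding 20 or more counts over both libraries were scaled with TMM (edgeR 4.0.16, R 4.3.3) and tested with the two-sided exact binomial test (scipy 1.17.1), Benjamini-Hochberg adjusted over all 14358 of them. A call needed an adjusted p below 0.05 and a fold of at least 2. Log2 ratios use a prior count of 0.5. The GC trend is a lowess fit (statsmodels 0.14.6, fraction 0.3) subtracted from the ratio and from the tested proportion. Nuclear TPM leaves out mitochondrial genes and 15 nuclear copies (BLAST 2.17.0, 90% identity across 50% of the transcript). Copies of the 40 genes were sought at 95% identity over 50%. Intervals are exact (Clopper-Pearson) at 95% and, with p-values, cover counting error only, as fragments without molecular identifiers are not independent molecules. The scripts were tested on simulated counts with few genes changed and no GC trend, which cannot test the removal of that trend. TMM expects most genes to be alike between libraries, which is not met here. Members and lists were chosen with earlier results of these data known. All 40 members are named, with up to 3 of the highest mean TPM in each other pathway list (and those at 0 counts), up to 2 in each marker list, and transcripts that lead in either library or hold at least 10% of Vegfa or Flt1. Overlapping genes, and Angpt4, Clec4g and Gp9, were named after their values were seen. Alternatives covered scaling (DESeq2 1.42.0 size factors and total counts), filters, fold, prior count, GC and length.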

Additional observations from a re-analysis of the deposited data

How the results depend on the processing

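No paired analysis was possible because both libraries belong to 1 group. Of the 40 genes, 10 were detected in both libraries at a TPM of at least 5, and without either library the count ranged from 23 to 39. The number called higher fell from 20 to 6 without the GC trend, to 6 without the GC and length trends and to 5 with GC content weighted by transcript shares, an alternative chosen after seeing the data. Over all genes the share called higher fell alongside, from 36.5% to 13.4%, 12.3% and 12%. The number called lower went from 6 to 0 under total-count scaling, where the share over all genes went from 27.7% to 3.98%. It was 13 with no fold minimum and 1 at a fold of 4, settings for which no share over all genes was computed. The median log2 ratio of 1.07 became 2.21 with total counts, 1.35 with total counts of nuclear genes and 0.88 without the length trend, where the median of all genes was 1.24, 0.39 and -0.24. It reversed to -0.23 without the GC trend, -0.064 without GC and length and -0.21 with share-weighted GC. Calls among other pathway genes went from 48 to 25 (GC) and 22 (GC and length), higher ones from 28 to 5 and 4, and lower ones from 20 to 0 with total counts. The shares over all genes given above apply here too. Of 28 leading transcripts 18 were the same, and 11 when only genes with at least 100 counts in each library were kept, which leaves fewer genes.

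Log2 ratios are listed without the GC trend, without the GC and length trends, and with share-weighted GC, in that order. Among genes called as measured, the sign reversed in each for Plvap (-0.18, -0.17, -0.31), Robo4 (-0.54, -0.32, -1.36), Vegfa (-1.12, -1.08, -0.91), Vegfb (-2.84, -3.15, -3.33), Flt4 (-0.86, -0.52, -1.18), Notch1 (-0.72, -0.37, -1.20) and Notch4 (-1.86, -1.49, -1.80). Among genes not called as measured, the sign changed in each for Mmrn2 (-0.75, -0.54, -0.85), Tek (0.04, 0.26, 0.05) and Angpt2 (0.34, 0.44, 0.38). Kdr changed sign without both trends, to 0.19, and Vegfc with share-weighted GC, to 0.58. Emcn reversed to 0.13 without the GC trend, Nrp1 to 0.039 and Angpt1 to 0.13 without both, and Tie1 to -0.08 with share-weighted GC. Under total counts Lyve1 came to 0.063, Angpt2 to 1.05, Apln to 1.13 and Erg to 1.04. The cause of these changes was not tested. DESeq2 size factors, no filter on low counts and a prior count of 5 changed no call among the 39 genes, and no filter added Pgf to those called higher, which made 21. Depth limits the GC-rich genes of replicate 1, such as Cldn5 and Sox18 at 3 counts each.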
